A study of Mus musculus with 6 samples.

Results

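Perineuronal nets are sheets of extracellular matrix that wrap the cell bodies and proximal dendrites of some neurons, in the cortex mainly interneurons that express parvalbumin, and they form as the juvenile period of plasticity closes. In a net, hyaluronan chains made by synthases at the cell surface carry chondroitin sulfate proteoglycans of the lectican family, link proteins (the Hapln genes) hold the lecticans on the hyaluronan, and tenascins join lecticans to each other. The 10 genes described here were taken by symbol from this machinery: the lectican genes Acan, Bcan, Ncan and Vcan, the link protein genes Hapln1 and Hapln4, the tenascin genes Tnr and Tnc, the hyaluronan synthase gene Has3, and Ptprz1, which encodes a receptor phosphatase whose secreted form, phosphacan, is itself a matrix proteoglycan. All 10 were among the 22000 symbols of the count table.

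RNA-seq compared the prefrontal cortex (PFC) of 3 control mice with that of 3 mice exposed to early life stress (ELS), with 1 library per mouse. All were wild-type male C57BL/6N mice of 9 weeks, born to the same mothers. ELS mice lived alone in filter-capped cages from weaning, and control mice shared a cage with other males. The study assessed behaviour in adolescence, and each housing condition was kept until tissue was taken. The question is whether isolation changed the expression of net genes in this bulk tissue, where fewer cells of a type and less RNA per cell cannot be told apart. Total counts ran from 28405795 to 35241743 per mouse, with the 3 ELS libraries the deepest. The tissue label was checked by marker genes. Slc17a7, the vesicular glutamate transporter of cortical excitatory neurons, had 1481 to 1703 CPM (counts scaled to library size with the TMM factors of edgeR), whereas Ttr of choroid plexus had at most 0.65 CPM. Markers of striatal projection neurons were present in every mouse, and their summed level of 537 CPM in control mouse 3 and 524 CPM in ELS mouse 1 stood above the 287 to 377 CPM of the other mice.

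None of the 10 genes passed the test for a change in ELS mice. A differentially expressed gene (DEG) needed a log2 fold change beyond -0.3 or 0.3 and an adjusted p under 0.05, and 0 of the 10 were called by edgeR's quasi-likelihood test, against 0.0152% of the 13185 genes tested, and DESeq2, which called 18 genes in all, also called 0 of the 10. At an unadjusted p under 0.05 the count was 0 of 10 by either tool, against 4.23% of all genes in the quasi-likelihood test. In each of the 10 the control and ELS groups overlapped in CPM, whereas 8.28% of all genes had groups that did not. The estimates were above 0 for 5 genes and below 0 for 5, with a median of -0.02 on the log2 scale, beside -0.005 over all genes tested.

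For Bcan, Ncan, Vcan, Hapln1, Hapln4 and Ptprz1 the 95% interval of the log2 fold change lay within -0.3 to 0.3, as it did for 61.4% of all genes tested, and the furthest bound among these 6 was 0.28 from 0. The intervals are per gene and not adjusted for the number of genes. For the other 4, Tnr and the scarce Acan, Tnc and Has3, the interval reached past 0.3 in at least one direction, so a change of that size lay within what the data allow. Has3 passed the filter on low values only through the control mice, since 2 of 3 ELS mice had at least 1 CPM, and its value is not independent of that filter.

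**Figure D1:**
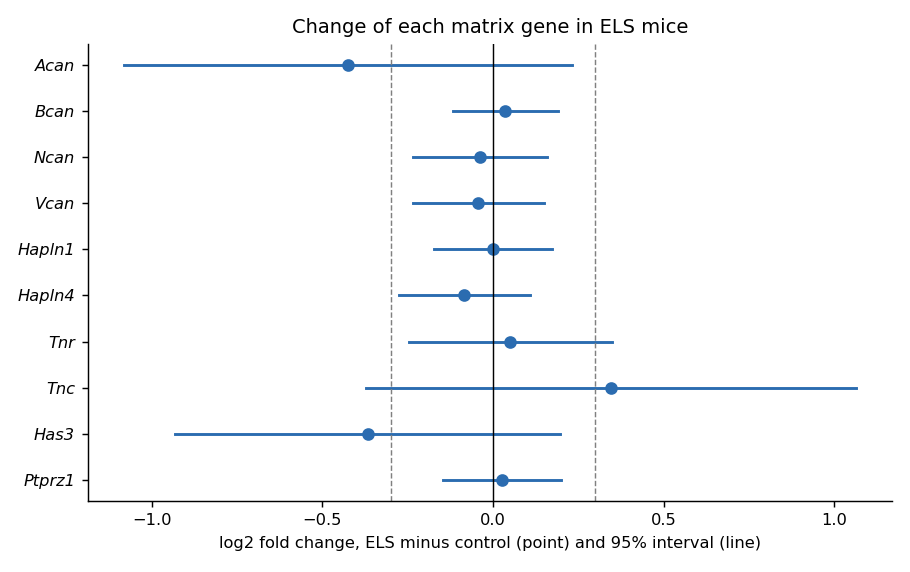
Log2 fold change of each of the 10 matrix genes in ELS relative to control mice (points) with its 95% interval from edgeR's quasi-likelihood test (lines). Dashed lines mark -0.3 and 0.3, and 6 of the intervals lie wholly between them, while those of Acan, Tnr, Tnc and Has3 do not.

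The members differed widely in abundance. Per kb of merged exon length, Bcan had 54.1 CPM, Ncan 37.3, Hapln4 28.3, Ptprz1 16.3, Tnr 12.1, Hapln1 7.79, Vcan 1.22, Tnc 0.32, Acan 0.27 and Has3 0.19, as means over the 6 mice, against a median of 6.40 CPM per kb over 12561 genes tested whose length was known. Bcan thus exceeded Acan by 198-fold. In every mouse the levels per kb of Bcan, Ncan, Hapln4, Ptprz1, Tnr, Hapln1 and Vcan followed this order, and the 3 scarce genes lay below them in an order that differed between mice.

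The genome pairs the lecticans with the link proteins. In GENCODE M21 on GRCm38, the assembly also called mm10, each of the 4 lectican genes has a link protein gene as its nearest protein-coding neighbour on one side. Acan lies on chromosome 7 from 79053483 to 79115099 (plus strand), and Hapln3 begins 2 bp beyond it on the minus strand, so that the 3′ ends of both genes meet. Ncan lies on chromosome 8 from 70093085 to 70120873 (minus strand), 2.22 kb from Hapln4, which runs from 70083457 to 70090862 on the plus strand. Vcan, on chromosome 13 from 89655312 to 89742509 (minus strand), is 43.7 kb from Hapln1, at 89539796 to 89611652 (plus strand). Bcan, on chromosome 3 from 87987531 to 88000230, is 21.5 kb from Hapln2, and both are on the minus strand. The remaining members stand apart from this arrangement. Tnr lies on chromosome 1 from 159523769 to 159931729 (plus strand), Tnc on chromosome 4 from 63959785 to 64047015 (minus strand), Has3 on chromosome 8 from 106870242 to 106884566 (plus strand) and Ptprz1 on chromosome 6 from 22875502 to 23052916 (plus strand). Genes on the opposite strand cover 3.44% of the Tnr exon bases, 2.26% of those of Tnc and 5.52% of those of Has3, and the strand setting of the counting is not given in the sources used here.

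Promoter sequences of RefSeq on GRCm38.p6 were found for 8 of the 10 genes. The 250 bases before the RefSeq start of Ncan, Tnr and Ptprz1 are shown because these genes, together with Hapln4, were lowest in the same pair of mice (described with the tenascins). For Ncan this start lies inside the gene as placed by GENCODE, so the end of its window, with the TATAAA match, overlaps that gene. Capitals mark matches, on either strand, to GGGCGG (a GC box), TATAAA or CAGCTG (an E-box), and none of these matches overlap in the 3 sequences. A further search for AACAAT, a core bound by SOX factors, had no match in the 8 genes. Of 32851 promoter windows of the same length, 32.7% held GGGCGG, 12.4% TATAAA, 13.0% CAGCTG and 9.42% AACAAT.

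Ncan, chr8:70120845-70121094, minus strand: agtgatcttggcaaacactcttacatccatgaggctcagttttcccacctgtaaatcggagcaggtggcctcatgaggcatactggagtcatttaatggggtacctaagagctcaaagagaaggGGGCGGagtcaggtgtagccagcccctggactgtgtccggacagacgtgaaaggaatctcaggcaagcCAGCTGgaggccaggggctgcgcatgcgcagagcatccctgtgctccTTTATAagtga
Tnr, chr1:159523519-159523768, plus strand: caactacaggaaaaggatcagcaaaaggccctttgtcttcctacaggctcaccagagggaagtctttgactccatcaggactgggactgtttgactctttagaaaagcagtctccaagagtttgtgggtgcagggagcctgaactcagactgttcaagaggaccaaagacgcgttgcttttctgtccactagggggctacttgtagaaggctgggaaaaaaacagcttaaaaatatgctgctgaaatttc
Ptprz1, chr6:22875252-22875501, plus strand: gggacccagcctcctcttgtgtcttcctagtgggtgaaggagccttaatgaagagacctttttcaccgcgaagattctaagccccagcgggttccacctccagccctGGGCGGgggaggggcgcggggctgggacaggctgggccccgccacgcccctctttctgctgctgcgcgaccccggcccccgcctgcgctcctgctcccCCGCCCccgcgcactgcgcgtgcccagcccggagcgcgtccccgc

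The 3 windows had little in common. That of Ptprz1 was rich in GC, at 71.6%, with 22 CG dinucleotides and 2 GC boxes, whereas that of Tnr had 46.8% GC, 2 CG dinucleotides and none of the motifs searched. That of Ncan lay between them, with 54.4% GC, 6 CG dinucleotides and 1 match to each of the 3 motifs. The medians over all windows were 52.4% GC and 6 CG dinucleotides. The window of Acan, a scarce gene, had 74.4% GC and 3 GC boxes.

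Bcan encodes brevican, the main lectican of the adult brain, which glia and neurons deposit around synapses and nets. Its levels were 220.0, 216 and 215 CPM in control mice 1 to 3 and 213, 212 and 243 CPM in ELS mice 1 to 3. ELS mice 1 and 2 were below every control mouse and ELS mouse 3 above all of them. The difference was small (control = 217 ± 2.65, ELS = 223 ± 17.4 CPM, SD, n = 3 each), with a log2 fold change of 0.04 and a 95% interval from -0.12 to 0.19.

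Ncan encodes neurocan, a lectican most abundant while circuits form and retained in adult nets. It had 297, 274 and 245 CPM in control mice and 234, 286 and 275 CPM in ELS mice. The lowest mouse of each group, control mouse 3 and ELS mouse 1, were the lowest of the 6, and the other 4 held 274 CPM or more. The log2 fold change was -0.04, with an interval from -0.23 to 0.16 (control = 272 ± 25.9, ELS = 265 ± 27.4 CPM, SD, n = 3 each).

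Vcan encodes versican, made mainly by glia of the oligodendrocyte lineage. Its levels were close together, at 18.4, 17.7 and 17.4 CPM in control mice and 17.3, 16.0 and 18.6 CPM in ELS mice, and the ELS mice spanned the whole range of the controls. The log2 fold change was -0.04 (interval -0.24 to 0.15).

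Acan encodes aggrecan, the lectican on which the structure of cortical nets depends most. It was detected at low level, with 55, 105 and 44 reads in control mice 1 to 3 and 56, 58 and 61 reads in ELS mice 1 to 3. In CPM these were 1.79, 3.72 and 1.54 against 1.68, 1.66 and 1.89. Control mouse 2 stood alone: its exact 95% Poisson interval, from 3.04 to 4.50 CPM, lay above the interval of each other mouse, the highest of which ended at 2.43 CPM. Such intervals cover counting error only. The other control mice, with a mean of 1.66 CPM, lay at the level of the ELS mice. The log2 fold change of -0.42 (interval -1.08 to 0.23, unadjusted p = 0.184 in edgeR's quasi-likelihood test) therefore rested on control mouse 2, without which it was 0.07. Without control mouse 3 it was -0.65 (unadjusted p = 0.0373, adjusted p = 0.394).

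Bcan and Ncan made up nearly all of the lectican level. Per kb, Bcan made up 55.9% to 60.7% of the summed lectican level over the 6 mice, Ncan 37.7% to 42.6%, Vcan 1.19% to 1.39% and Acan 0.23% to 0.53%. The Acan share was highest in control mouse 2, and the shares of each of the 4 overlapped between the groups. Those of Bcan were 57.6 ± 2.02% in control and 58.9 ± 2.59% in ELS mice (SD, n = 3 each).

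**Figure D2:**
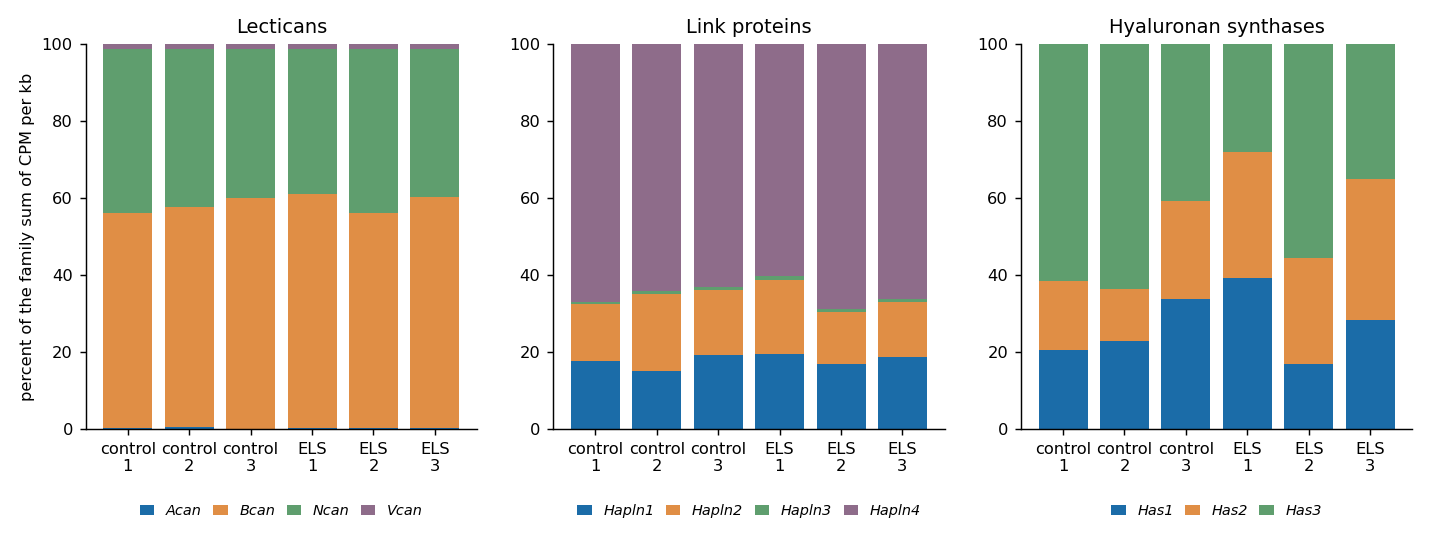
Share of each gene in the summed CPM per kb of its family, for lecticans, link proteins and hyaluronan synthases, with 1 bar per mouse. Bcan and Ncan fill nearly all of the lectican bar in each mouse, Hapln4 makes up 60.2% to 68.9% of the link proteins, and the synthase shares, which rest on few reads, differ most between mice.

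Link proteins clamp the lecticans to hyaluronan. Hapln4, which encodes the brain link protein Bral2, was the most abundant, at 116, 118 and 109.6 CPM in control mice and 92.4, 119.9 and 111 CPM in ELS mice. ELS mouse 1 was below every other mouse, while ELS mouse 2 was above all of them. Its log2 fold change of -0.08 (interval -0.28 to 0.11) turned to 0.01 without ELS mouse 1. Hapln1, which encodes the link protein Crtl1, had 46.0, 41.7 and 50.2 CPM in control and 45.4, 44.6 and 47.9 CPM in ELS mice. The ELS mice lay inside the range of the controls, and the log2 fold change was 0.00 (interval -0.17 to 0.17).

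Per kb, Hapln4 exceeded Hapln1 by 3.64-fold, and their shares of the summed link protein level overlapped between groups. Hapln2, the neighbour of Bcan and a link protein of nodes of Ranvier, made up 17.2 ± 2.67% of that sum in control and 15.5 ± 3.10% in ELS mice (SD, n = 3 each), with 15.4, 22.2 and 17.7 CPM in control and 17.7, 14.1 and 14.3 CPM in ELS mice. Its log2 fold change was -0.26 (interval -0.55 to 0.03, adjusted p = 1 in the quasi-likelihood test), and the groups overlapped. Hapln3, the neighbour of Acan, was scarce, with 0.97, 1.17 and 1.19 CPM in control and 1.53, 1.06 and 1.55 CPM in ELS mice. Its groups overlapped, and its log2 fold change of 0.31 had an interval from -0.24 to 0.86. It passed the filter on low values only through the ELS mice, so this value is not independent of that filter.

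Tenascin-R, the product of Tnr, cross-links lecticans in the net and is made by oligodendrocyte lineage cells and some interneurons. It had 175, 169 and 116 CPM in control mice 1 to 3 and 134, 172 and 169.9 CPM in ELS mice 1 to 3. Control mouse 3 and ELS mouse 1 were low, and the other 4 mice lay within 169 to 175 CPM. These levels rest on 3322 to 6019 reads per mouse. The spread of Tnr within groups, an SD of 0.27 on the log2 scale, was larger than that of 95.5% of genes tested, whose median was 0.11. Its log2 fold change was 0.05 (interval -0.25 to 0.35) and ran from -0.12 without control mouse 3 to 0.16 without control mouse 1.

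The 2 mice in which Tnr was lowest were also the 2 lowest for Ncan, Hapln4 and Ptprz1, that is, for 4 of the 10 members, against 16.5% of all genes tested. For Ptprz1 control mice 2 and 3 were nearly equal, at 224.3 and 223.8 CPM. The choice of these mice was made after the values were seen. Of the lists of related genes described below, receptors and ligands (4148 and 4188 CPM, against 4652 to 4878 CPM) and other proteoglycans (4316 and 4389 CPM, against 4454 to 4708 CPM) were also lowest in these mice. So were the synthesis and breakdown lists, but not the proteases or the other link proteins, tenascins and synthases. The same mice had the highest summed level of striatal markers, the lowest of cortical excitatory neuron markers (2155 and 2191 CPM, against 2278 to 2479 CPM), the lowest of parvalbumin interneuron markers (469 and 426 CPM, against 497 to 557 CPM), and the highest of mature oligodendrocyte markers (8178 and 7260 CPM, against 6220 to 6856 CPM) and of blood markers (85.2 and 79.8 CPM, against 51.0 to 64.4 CPM). The striatal covariate was the mean log2 CPM of the striatal markers, not their sum. With it in the quasi-likelihood fit, the log2 fold change of Tnr was 0.20, with an unadjusted p of 0.000759 and an adjusted p of 0.124, which did not pass. That of Ncan moved from -0.038 to 0.031, of Hapln4 from -0.084 to -0.035, of Ptprz1 from 0.026 to 0.06 and, outside these 4 genes, of Acan from -0.424 to -0.272, and no member was called. One of the low mice belongs to each group, and the part of tissue composition in these levels was not tested beyond this covariate.

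**Figure D3:**
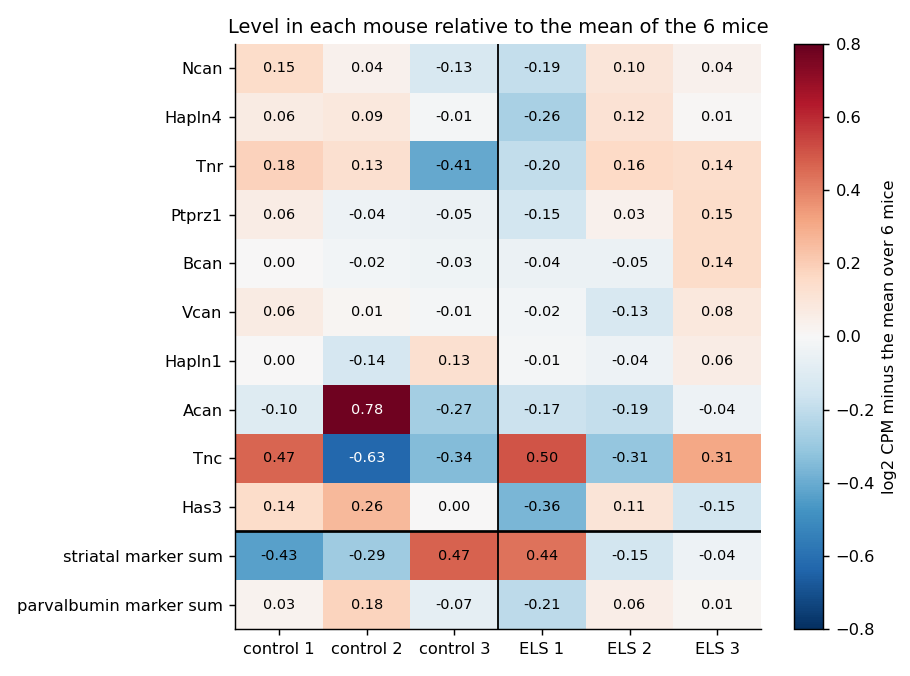
Log2 CPM of each matrix gene in each mouse minus its mean over the 6 mice, with the summed levels of striatal and parvalbumin interneuron markers in the lowest rows. Ncan, Hapln4, Tnr and Ptprz1, the upper rows, are lowest in control mouse 3 and ELS mouse 1, in which the striatal sum is highest.

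Tenascin-C, the product of Tnc, is a protein of developing and reactive glia. Its level was 37.9-fold below that of Tnr per kb, with 106, 38 and 50 reads in control mice and 118, 63 and 98 reads in ELS mice. In CPM the values were 3.44, 1.35 and 1.75 against 3.54, 1.80 and 3.04. High and low mice occurred in both groups: control mouse 1 and ELS mice 1 and 3 had Poisson intervals above 2.4 CPM, and the other 3 mice had intervals that ended at or below 2.31 CPM. The log2 fold change of 0.35 had an interval from -0.37 to 1.06. It was 0.85 without control mouse 1 (unadjusted p = 0.0205, adjusted p = 1 in the quasi-likelihood test) and 0.10 without control mouse 2.

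Has3 encodes a synthase that extrudes hyaluronan, the backbone of the net. It had 42, 43 and 34 reads in control and 27, 46 and 33 reads in ELS mice, or 1.36, 1.52 and 1.19 CPM against 0.81, 1.32 and 1.02 CPM. The control mice spanned 1.19 to 1.52 CPM, and ELS mouse 2 fell among them. For Has3 the log2 fold change was -0.37 (interval -0.93 to 0.20). The Poisson interval of ELS mouse 1, the lowest, ran from 0.53 to 1.18 CPM and overlapped that of every control mouse. Has1 and Has2, the other synthase genes, had 10 to 27 and 6 to 23 reads. They did not pass the filter and were not in the main test, and the fit with no filter called neither. Their few reads leave the synthase mix uncertain: the Has2 share of the summed synthase level per kb was 13.4% to 25.3% in control and 27.3% to 36.7% in ELS mice, on 6 to 14 and 15 to 23 reads. These shares did not overlap, but the Has2 levels did, at 0.26, 0.21 and 0.49 CPM in control and 0.63, 0.43 and 0.71 CPM in ELS mice.

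Ptprz1 had 241, 224 and 224 CPM in control mice and 208, 237 and 256 CPM in ELS mice. ELS mice 1 and 3 were the lowest and the highest of all 6, and the controls lay between them. For Ptprz1 the log2 fold change was 0.03, with an interval from -0.15 to 0.20 (control = 230 ± 9.48, ELS = 234 ± 24.0 CPM, SD, n = 3 each).

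**Figure D4:**
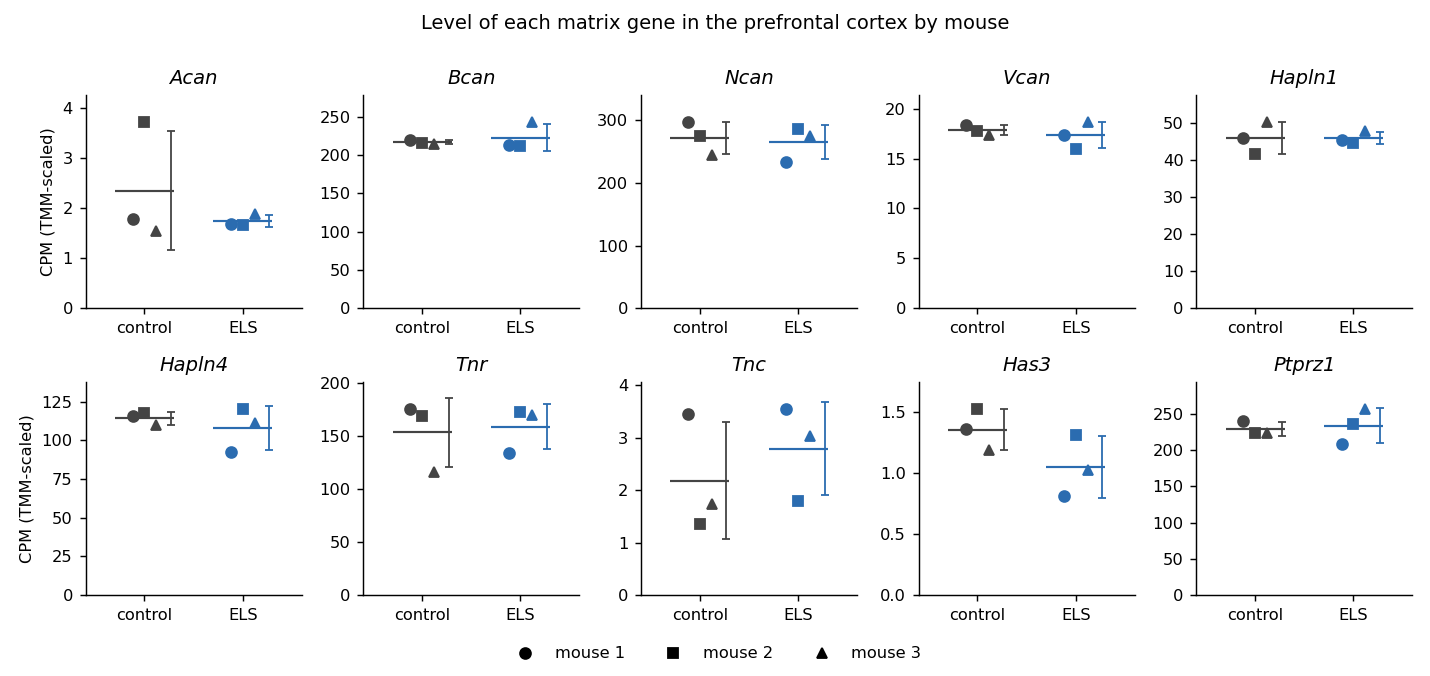
TMM-scaled CPM of each matrix gene in 3 control and 3 ELS mice, with axes that start at 0. Points are mice, horizontal lines are group means and error bars are SDs, and the groups overlap in all 10 panels, with control mouse 2 alone at 3.72 CPM for Acan.

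The enzymes, receptors and proteases that act on the net were examined as lists, and the quasi-likelihood test called no gene in any of them. In the synthesis and sulfation of chondroitin sulfate, the sugar chains of lecticans, 21 of 23 genes were tested, 0 passed an unadjusted p under 0.05, and the median log2 fold change was 0.07, or 0.03 without control mouse 3 and 0.02 without ELS mouse 3. B3gat3, which completes the linker of these chains, had the highest level of the list at 55.1 CPM per kb and a log2 fold change of 0.00. Dsel, an epimerase of these chains, had the smallest p, at 26.6 to 27.2 CPM in control and 27.4 to 32.4 CPM in ELS mice, groups that did not overlap (log2 fold change 0.15, interval -0.03 to 0.33). The groups of B3galt6, which adds a galactose of the linker, did not overlap either (log2 fold change 0.12, interval -0.05 to 0.29). For the breakdown of hyaluronan and chondroitin sulfate, 12 of 15 genes could be tested, none at an unadjusted p under 0.05, and the median was 0.04, or -0.005 without control mouse 3 and 0.001 without ELS mouse 2. Its most abundant gene per kb, Ids, which encodes a lysosomal iduronate sulfatase, had a level of 167 CPM per kb and a log2 fold change of 0.05. Hexa, a subunit of lysosomal hexosaminidase, had the smallest p and a log2 fold change of 0.11.

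Among matrix proteases and their inhibitors, 20 of 25 genes were tested and 0 had an unadjusted p under 0.05 (median 0.01). Mmp14, a membrane-bound metalloprotease, had the smallest p, with a mean of 8.47 CPM in control and 10.1 CPM in ELS mice and groups that overlapped (log2 fold change 0.25, interval -0.01 to 0.51). The most abundant per kb was Serpini1, which encodes the neuronal inhibitor neuroserpin, with a log2 fold change of 0.01. Among receptors and ligands of the net, 23 of 24 were tested, and 1 had an unadjusted p under 0.05. This was Nrp1, the neuropilin receptor for the Sema3a protein that nets retain, at 24.0, 22.0 and 19.6 CPM in control and 19.1, 17.4 and 18.3 CPM in ELS mice. The groups did not overlap, with the ELS mice lower (log2 fold change -0.26, interval -0.46 to -0.06, unadjusted p = 0.0161), but the adjusted p was 1 in the quasi-likelihood test. Ptn, a ligand of Ptprz1 and the most abundant of this list per kb, had a log2 fold change of 0.08 (interval -0.07 to 0.24).

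Of the other proteoglycans, 25 of 26 were tested, with 20 values above 0 and a median log2 fold change of 0.07, or 0.02 without control mouse 2 or ELS mouse 3. Dcn, which encodes decorin, was the gene with an unadjusted p under 0.05, at 10.9, 10.1 and 11.7 CPM in control and 13.6, 12.7 and 12.6 CPM in ELS mice, groups that did not overlap (log2 fold change 0.25, interval 0.03 to 0.47, unadjusted p = 0.0279, adjusted p = 1 in the quasi-likelihood test). Dcn, Lum and Fmod are also in the list of meningeal fibroblast markers. In that list all 8 log2 fold changes were above 0 (median 0.24, with 7.22 CPM of Col1a1 in control and 9.26 CPM in ELS mice), groups did not overlap for Dcn and Igf2 (0.44), and the summed level ran from 62.0 to 81.4 CPM in control and from 74.8 to 91.5 CPM in ELS mice. The part of meningeal tissue in the values of Dcn, Lum and Fmod was not tested. Spock2, which encodes the proteoglycan testican-2 and was the most abundant of the list per kb, had a log2 fold change of -0.04. The third tenascin tested, Tnxb, had one of -0.07.

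Markers of the cells that make or carry nets gave no call either. For parvalbumin interneurons, the main bearers of nets, 7 of 8 log2 fold changes were below 0 (median -0.11), and 2 genes had an unadjusted p under 0.05, Syt2 (-0.35) and Cox6a2 (-0.48), with an adjusted p of 1 each in the quasi-likelihood test. The summed level of the list overlapped between groups, from 469 to 557 CPM in control and from 426 to 511 CPM in ELS mice. Tac1, the gene above 0, had 35.6 CPM in control mouse 3 and 34.2 CPM in ELS mouse 1, the mice with the highest striatal sum. In the other mice it had 17.0 to 21.8 CPM. Pvalb had 59.3, 73.2 and 70.3 CPM in control and 57.0, 56.7 and 67.8 CPM in ELS mice (log2 fold change -0.16, interval -0.36 to 0.04). Control mouse 2, the mouse with the high Acan value, had the highest summed parvalbumin marker level of the 6 and the highest Pvalb, Syt2, Kcnc1 and Lhx6, whereas Kcnc2, Erbb4, Tac1 and Cox6a2 were highest in other mice and Tac1 was lowest in it. What part these markers have in the Acan values was not tested.

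For astrocytes the median log2 fold change was -0.03 over 9 markers and for oligodendrocyte precursor cells 0.08 over 8, with 0.04 for Aqp4 and 0.08 for Pdgfra. Among these, Sox9 of astrocytes had an unadjusted p under 0.05 (0.21), and groups did not overlap for Aldh1l1 of astrocytes (-0.13) and Neu4 of precursor cells (0.17). Mature oligodendrocytes had a median of -0.01 over 9 markers, with -0.03 for Mbp and 0.30 for Opalin, whose groups did not overlap (unadjusted p = 0.00984, adjusted p = 0.96 in the quasi-likelihood test), and other interneurons 0.01 over 10, with -0.01 for Gad1. Microglia had a median of 0.03 over 8 markers, with 0.11 for Aif1 and groups apart for Cx3cr1 (0.13), and striatal projection neurons 0.20 over 9. Endothelial cells and pericytes had a median of 0.18 over 8, and 3 genes at an unadjusted p under 0.05, with 0.31 for Cldn5, 0.28 for Pdgfrb and 0.36 for Kcnj8, the gene of this list whose groups did not overlap. The summed levels of each of these lists overlapped between groups. Cortical excitatory neurons had 9 of 9 values below 0 (median -0.08), blood a median of 0.02 over 5 genes, some of which are near-identical copies, and of the choroid plexus list only Kl was tested (0.36).

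**Figure D5:**
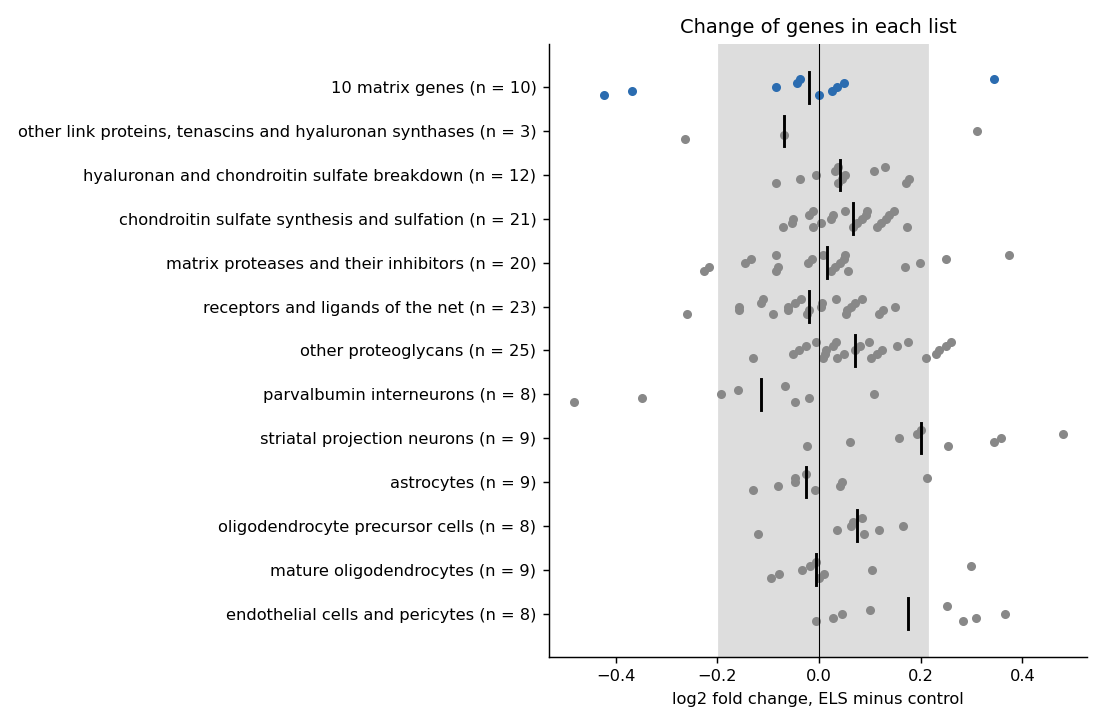
Log2 fold change in ELS mice of each gene tested in the matrix set (blue), in 6 lists of related genes and in 6 lists of cell type markers (grey), with black bars at the medians. The shaded band holds the middle 90% of all genes tested, and 7 of the 10 matrix genes lie in it, with Acan and Has3 below and Tnc above.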

How the data were processed

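PFC RNA from 3 mice per group was profiled by paired-end, stranded mRNA sequencing, with different library kits named in the paper and the labels. The authors trimmed reads, mapped them to mm10, counted unique alignments per gene and deposited raw counts, neither normalized nor pooled. The submitters' processing notes give STAR 2.7.1a and HTSeq 0.9.1, and the paper names another STAR release. Annotation release and strand setting are not given in the sources used here. Columns named for social isolation were assigned to ELS mice of the same number.

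Genes that reached 1 CPM in every mouse of 1 group or the other were kept (13185). The main test was the quasi-likelihood test of edgeR 4.0.16, run in R 4.3.3 on all of them with TMM factors (0.992 to 1.02), condition as the only term and Benjamini-Hochberg adjustment. It was checked on simulated counts with 200 changed genes, none as scarce as Acan, Tnc and Has3 and all changed by more than any member. The check therefore does not cover scarcer genes or smaller changes. The study used DESeq. The alternatives were DESeq2 1.42.0, edgeR's likelihood ratio test, limma-voom (limma 3.58.1), size factors of DESeq2 or the upper quartile, no CPM filter, no fold threshold, thinned counts, a striatal covariate, a replicate block and each mouse left out. Replicate mice differed beyond sampling noise (lowest chi-square per degree 6.70). P-values weigh the difference between groups against the spread between mice, moderated across genes. The cage and litter of each sequenced mouse are not given, so whether the mice are independent is not known. SDs of log2 values used a pseudocount of 0.5. CPM per kb used merged GENCODE M21 exons, matched for 89.0% of symbols, so a gene with unused exons is understated. Cemip2 was found under its older symbol Tmem2 and counted once, Drd1 is not analysed here, and hexb and arsb were matched without regard to case.

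Members and lists were chosen with earlier results of these data known. Genes were named by rule: the members, their link protein neighbours, and from each list the called genes, the smallest p and the highest CPM per kb (for markers, the first gene). Has1, Has2, Tnxb, B3galt6, Kl, and the markers other than the first of a list, were singled out after their values were seen.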

Additional observations from a re-analysis of the deposited data

How the results depend on the processing

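No member was called under any of the alternatives, which were DESeq2, the likelihood ratio test, limma-voom, both other size factors, no filter, no fold threshold, thinned counts, the striatal covariate, the replicate block and leaving out each mouse. The number of members at an unadjusted p under 0.05 was 0, and became 1 with the striatal covariate (Tnr, against 7.40% of all genes) and ran from 0 to 1 with a mouse left out (Tnc without control mouse 1, against 4.16% of all genes, and Acan without control mouse 3, against 11.7%). The number of members whose groups did not overlap was 0, and ran from 0 to 2 with a mouse left out: Tnc without control mouse 1, Has3 without control mouse 3 or ELS mouse 2, and Bcan and Vcan without ELS mouse 3. In those fits 14.8% to 29.5% of all genes tested had groups apart. Over all genes, 2 were called, against 18 with DESeq2, 28 with the likelihood ratio test, 4 with no filter, 37 with the striatal covariate and 1 to 29 when 1 mouse was dropped, the 29 without control mouse 3, and the cause was not tested.

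A replicate block on the mouse numbers gave 7 calls, none of them a member. Deviations of same-numbered mice correlated at -0.164, 0.258 and -0.0355, and the labels do not say that a number marks a litter, so the mice were not taken as pairs.

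Tnc and Has3 kept their direction in every fit, from 0.096 to 0.848 and from -0.569 to -0.213 when 1 mouse was dropped (Has3 at -0.569 without ELS mouse 2 and at -0.213 without ELS mouse 1), but the filter chose Has3 through its control level. Over the fits that dropped 1 mouse, Acan ran from -0.652 to 0.066 on the log2 scale, above 0 without control mouse 2. Bcan ran from -0.031 to 0.067, Ncan from -0.11 to 0.041, Vcan from -0.098 to 0.009, Hapln1 from -0.065 to 0.066, Hapln4 from -0.169 to 0.014, Tnr from -0.117 to 0.157 and Ptprz1 from -0.045 to 0.10, so each of these crossed 0. With the striatal covariate, Ncan turned to 0.031 and Hapln1 to -0.027. Without control mouse 3 the medians of other interneurons and astrocytes became 0.058 and 0.038, and 1 striatal marker was called; without ELS mouse 2 the medians of other interneurons and astrocytes were 0.048 and 0.027. Other list medians near 0 also changed sign when 1 mouse was dropped: the other link proteins, tenascins and synthases (-0.068 with all mice) ran from -0.27 to 0.078, and were at 0.073 with the striatal covariate and 0.094 with no filter, proteases ran from -0.022 to 0.041, receptors and ligands from -0.067 to 0.048, mature oligodendrocytes from -0.076 to 0.091 and microglia from -0.005 to 0.10. The striatal median of 0.20 ran from -0.129 without ELS mouse 1 to 0.629 without control mouse 3, and those of parvalbumin interneurons, endothelial cells and pericytes, and meningeal fibroblasts from -0.175 to -0.064, from 0.077 to 0.251 and from 0.169 to 0.389. Acan, Tnc and Has3 had at most 118 reads per mouse, and the spread of Acan and Tnc between mice exceeded counting error.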
